A study of Drosophila melanogaster with 3 samples.

Results

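Isolated MCM regions are the 529 regions of the whole-series peak list that stood 20 kb or more from both of their neighbours. They were chosen by position alone. A region of the list was taken when the gap to the preceding region and the gap to the following region on the same chromosome arm both measured at least 20000 bp, and the first and last region of each arm were left out. The 529 regions are 7.65% (exact binomial 95% interval 7.03% to 8.30%) of the 6918 regions on the arms X, 2L, 2R, 3L and 3R and on chromosome 4, and the list held 7029 regions with U and the Het scaffolds. The other 6389 regions of the arms and chromosome 4 are called the other regions here.

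The regions come from MCM immunoprecipitations of Kc167 cells, an established female line derived from late Drosophila melanogaster embryos, labelled with the genotype se/e and grown as asynchronous cultures without a treatment. The antibody was a mouse monoclonal made against the purified yeast complex and directed to the Walker B motif that the MCM subunits share. The series has 2 immunoprecipitations from separately numbered chromatin extractions, called replicate 1 and replicate 2, and 1 input, of which no values were analysed here. Separate cultures are not named in the labels, so an SD over the replicates may reflect technical spread alone. Both immunoprecipitations are of the same group, so there is no comparison between conditions. Isolated and other regions were compared within each replicate. An exact sign-flip permutation over 2 replicates cannot give a two-sided p below 0.5, so no test was made. Regions of the same libraries were not used as replicates for an SD or a test. Read counts were not used, so depth is unknown, and the binomial intervals cover counting error only. These intervals take regions as independent, although neighbouring regions can share the same nearby peaks. They may therefore be too narrow and serve as description.

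The MCM2-7 complex is the ring-shaped helicase that opens DNA ahead of the replication fork. It is loaded in an inactive form at replication origins by the origin recognition complex with Cdc6 and Cdt1, before DNA synthesis starts, and part of the loaded complexes are later activated. More complexes are loaded than are used in an undisturbed S phase, and the rest are known as dormant origins. Loaded MCM can also slide along DNA, so a peak marks a place where the complex was found and need not be the place where it was loaded.

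The most widely spaced member lay on 2R from 1264838 to 1265028, with 453 kb free of other regions before it and 314 kb after it. This region was 191 bp wide and scored 2.69 in replicate 1 and 3.23 in replicate 2, and 67.1% of the regions on the arms had a whole-series score no higher than its 2.96. It was followed by 2L from 22648988 to 22649168, with gaps of 178 and 226 kb, and by X from 21681725 to 21682055, with gaps of 186 and 175 kb. All 3 lay within 2 Mb of the centromere end of their arm. The one on X was 331 bp wide and scored 1.42 in replicate 1 and 1.28 in replicate 2, which made it the member with the lowest whole-series score, 1.35. The fourth differed from these, since it lay at 53.9% of the span of X from the telomere end. That region, from 12097728 to 12097841, had gaps of 175 and 259 kb, a width of 114 bp and scores of 4.71 in replicate 1 and 3.97 in replicate 2. The fifth, on 3L from 23251744 to 23251965, had a gap of 163 kb on one side and one of 917 kb on the other, the longest beside any member. On 3R the member with the largest smaller gap, 141 kb, lay from 1833170 to 1834398, and on chromosome 4 it lay from 1133592 to 1133743 with 81.0 kb.

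Most members were far less remote than these. The smaller of the gaps had a median of 29896 bp (interquartile range 24431 to 41019 bp), and the larger one had a median of 64490 bp (42666 to 98224 bp). Of the 529 members, 261 kept at least 30 kb free on both sides, 88 kept at least 50 kb and 16 kept at least 100 kb. The threshold of 20 kb cut a continuous range of gaps. Just inside it were a region of 2R (2059021 to 2059266), with a smaller gap of 20026 bp, and a pair of neighbours on 3L (14104625 to 14104816 and 14124862 to 14125000), which share a gap of 20045 bp. Just outside it, the smaller gaps were 19987 bp on 3R (27209986 to 27210265), 19986 bp on X (10771752 to 10771911) and 19968 bp on 3L (8840747 to 8840893). The whole-series scores were 1.76, 2.09 and 2.69 for the regions just inside, and 4.59, 2.78 and 2.17 for those just outside.

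Some isolated regions followed one another along an arm. In 231 cases a member had no member as its direct neighbour, while the other 298 members formed 123 runs of 2 or more. Members made up 33.1% of all region sides that faced a gap of 20 kb or more, and 33.1% of the members' own sides faced another member, the same share. The longest runs held 6 members each. One spanned 861 kb of 2R, from 403994 to 1265028, and ended with the most widely spaced member, while the other spanned 279 kb of chromosome 4, from 854951 to 1133743. With each gap split evenly between the regions on its sides, the 529 members occupied 31.6 Mb, which is 26.4% of the 119.9 Mb spanned by these arms.

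Members were found on all arms at a similar density. There were 95 on X, 97 on 2L, 95 on 2R, 100 on 3L and 130 on 3R, or 4.10 to 4.66 per Mb of span on these large arms. The other regions varied more along the same arms, from 45.7 per Mb on 2L to 61.4 per Mb on X. The share of regions that were isolated was therefore 6.46% on X, which had most regions per Mb, and 8.49% on 2L, which had fewest among the large arms. The exact binomial 95% intervals of these shares were 5.26% to 7.84% on X and 6.94% to 10.3% on 2L. Chromosome 4, the small and largely heterochromatic autosome, stood apart with 12 isolated regions among 35, a share of 34.3% (19.1% to 52.2%) and 9.83 members per Mb. Since gaps define the members, these shares follow from how the list is spaced and carry no test.

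**Figure D1:**
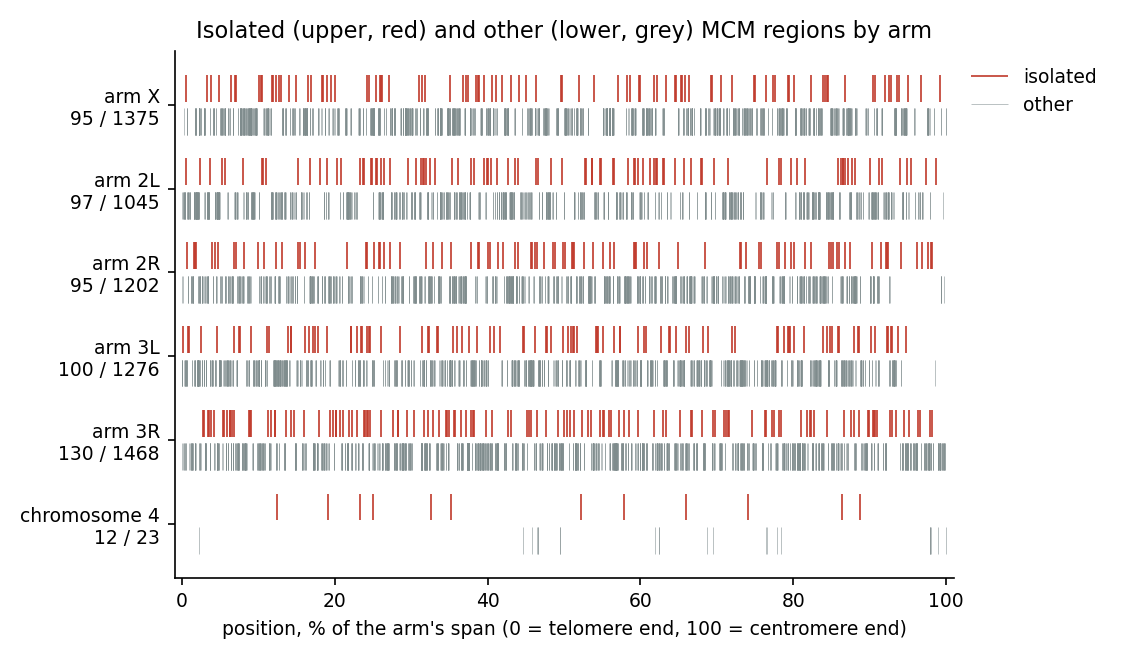
Positions of the 529 isolated regions (upper red ticks) and the 6389 other regions (lower grey ticks) on each arm, in percent of the arm's span from the telomere end, with the number of isolated and other regions under each arm's name. Red ticks run along the large arms from end to end, with 50 of the 517 in the 10% nearest the centromere.

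Along the large arms, isolated regions were spread from telomere to centromere. When the span of each arm was divided into 10 equal parts, each part held between 42 and 59 of the 517 members on these arms. With these arms pooled, the share of regions that were isolated was 11.8% in the part nearest the centromere, where 50 of 425 regions were members, and 5.88% to 8.88% in the others. Those held 635 to 810 regions each, so the higher share went with fewer regions and not with more members. By arm, the part nearest the centromere had the highest share only on 2R (24.4%) and 3L (18.2%). On X, 2L and 3R its share was 10.5%, 8.70% and 8.72%. The highest share on these arms was 12.8% at 10% to 20% of the span of X, 21.7% at 60% to 70% of 2L and 10.4% at 0% to 10% of 3R. The spacing of regions enters the rule, so shares by position describe the list and carry no test. The 2 Mb at the centromere ends held 7.54% of the members (39 of 517, interval 5.42% to 10.2%) and 4.52% of the other regions (288 of 6366, interval 4.03% to 5.06%). This difference was uneven between arms. On 2R, 10 of the 29 regions in this block were isolated, against 6.70% of regions elsewhere on the arm, and on 3L 6 of 33 were, against 7.00% elsewhere. On 3R the share was 6.78% in the block and 8.24% elsewhere. With a block of 1 Mb in place of 2 Mb, the share of members exceeded that of the other regions by 0.703 percentage points in place of 3.02. With the gap rule applied to the list of a single replicate, the share of isolated peaks there exceeded that of the others. The difference was 6.13 points in replicate 1 and 4.82 points in replicate 2.

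Isolated regions were narrower than the other regions. The rule used gaps and not widths, although both come from the same peak calls. The median width was 168 bp (interquartile range 123 to 247 bp, range 27 to 1229 bp) for isolated regions and 212 bp (137 to 334 bp, range 3 to 3050 bp) for the other regions. Within each region the peaks of replicate 1 covered a median of 155 bp in isolated regions and 196 bp in the other regions, and those of replicate 2 covered 136 bp in isolated and 157 bp in other regions. Isolated minus other regions came to -41 bp in replicate 1 and to -21 bp in replicate 2, with a mean of -31 ± 14.1 bp (SD, n = 2). Isolated regions were the narrower ones in both replicates on each of the large arms, where the differences ran from -47 bp on 3L to -31 bp on 2R in replicate 1 and from -31 bp on X to -16 bp on 3L in replicate 2. Chromosome 4 went the other way, with 121.5 bp in isolated and 111 bp in other regions in replicate 1, and 158 bp in isolated and 111 bp in other regions in replicate 2, but this rests on 12 isolated and 23 other regions.

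The distributions differed most at the wide end. Broad regions of 600 bp or more numbered 12 of 529 isolated regions, or 2.27% (interval 1.18% to 3.93%), against 404 of 6389 other regions, or 6.32% (5.74% to 6.95%), where 6.01% of all regions of the arms were that wide. Regions of 300 bp or more made up 17.2% of the isolated and 30.4% of the other regions. At the narrow end, 14.6% of isolated regions (11.7% to 17.9%) and 10.4% of other regions (9.70% to 11.2%) were under 100 bp.

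**Figure D2:**
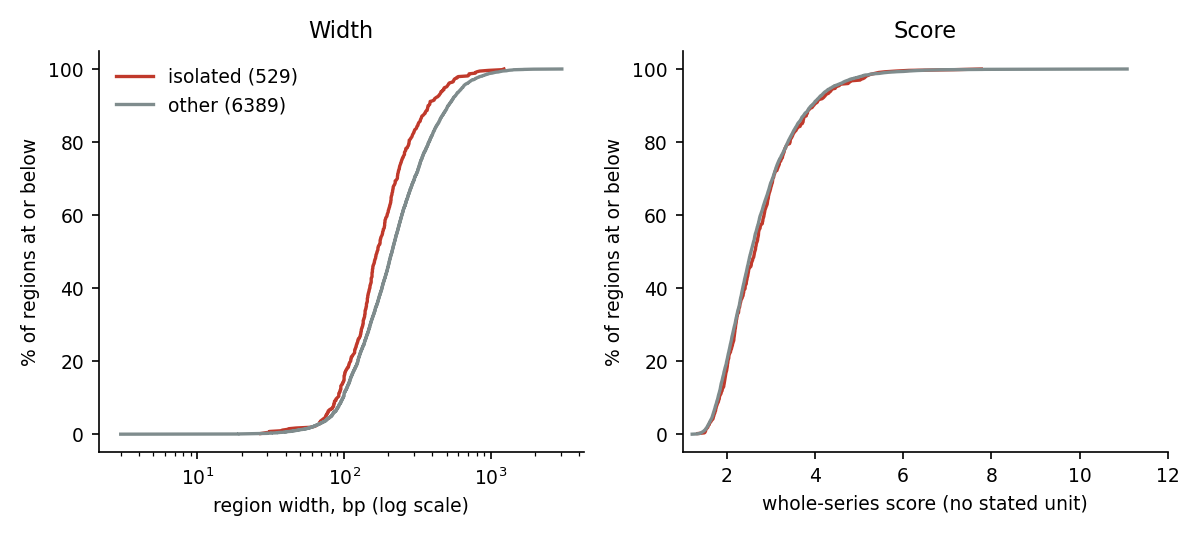
Cumulative share of isolated regions (red, 529) and other regions (grey, 6389) by width in bp on a log axis (left) and by whole-series score, which has no stated unit (right). The width curve of isolated regions lies to the left, with medians of 168 bp (isolated) and 212 bp (other), while the score curves nearly coincide, with medians of 2.64 (isolated) and 2.55 (other).

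The widest members were exceptions with more than one replicate peak each. The widest, 3R from 1833170 to 1834398, measured 1229 bp and was also the most widely spaced member of its arm. It consisted of 1 peak in replicate 1, with a score of 3.73, and 2 peaks in replicate 2, with a mean score of 4.82. The second widest, 1193 bp on X from 17780506 to 17781698, scored 2.47 in replicate 1 and 2.21 in replicate 2. The third, on chromosome 4 from 577904 to 578867, measured 964 bp, all of it covered by 1 peak of replicate 2, and scored 3.51 and 3.53 in replicates 1 and 2. The narrowest members included 3 on 2R. They measured 27 bp at 12914281 to 12914307, 29 bp at 10892186 to 10892214 and 31 bp at 5677786 to 5677816, and a member of 3R at 18136557 to 18136587 also measured 31 bp. In the 27 bp member, the peak of replicate 2 was a single base.

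Scores did not separate isolated from other regions in the way widths did. The score of a region has no stated unit, so differences are given and not folds. In the regions named here with 1 peak of each replicate, the whole-series score equalled the mean of the replicate scores. It is thus no separate measurement. The median whole-series score was 2.64 (interquartile range 2.14 to 3.23) for isolated and 2.55 (2.09 to 3.19) for other regions. In replicate 1 the medians were 2.78 for isolated and 2.77 for other regions, and in replicate 2 they were 2.41 for isolated and 2.35 for other regions. The difference was 0.018 in replicate 1 and 0.0591 in replicate 2, with a mean of 0.0386 ± 0.029 (SD, n = 2). The direction depended on the arm in both replicates. Isolated regions had the higher median on X, 2L, 2R and 3R, and the lower median on 3L and chromosome 4. On 2L the difference was 0.251 in replicate 1 and 0.274 in replicate 2, while on 3L it was -0.117 in replicate 1 and -0.0801 in replicate 2. Among the 50% of regions with the higher score, to which the gap rule was then applied anew, the sign turned to -0.0501. Members were present at both ends of the scale, with 10.6% of them (8.10% to 13.5%) among the highest 10% of all scores and 8.51% (6.27% to 11.2%) among the lowest 10%.

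The highest-scoring members were narrow. The first, on X from 868541 to 868620, scored 7.30 in replicate 1 and 8.25 in replicate 2 over a width of 80 bp. The second, also on X (17401058 to 17401133), was 76 bp wide and scored 8.06 in replicate 1 and 6.23 in replicate 2. The third was on X as well (12791292 to 12791443), 152 bp wide, and scored 7.23 in replicate 1 and 5.03 in replicate 2. These 3 regions lay at 3.77%, 77.6% and 57.0% of the span of X from the telomere end and thus in different parts of the arm. The fourth, 111 bp of 2R (3906427 to 3906537), scored 6.61 in replicate 1 and 5.06 in replicate 2, and the fifth, 95 bp of 2L (13641159 to 13641253), scored 6.19 in replicate 1 and 5.0 in replicate 2. All 5 were in the highest 1% of scores on the arms and narrower than the median of the isolated regions. The peak of replicate 2 covered less of each of them than that of replicate 1, down to 9 bp for the first.

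At a given width, isolated regions had slightly higher median scores when all arms were pooled. Wide regions scored higher than narrow ones among isolated and other regions alike, with Spearman's rho between width and score of 0.340 over 529 isolated regions and 0.333 over 6389 other regions. Both measures come from the same peaks, so this is a description. When all regions of the arms were divided into 5 equal classes of width, the median score of isolated regions was above that of other regions in 5 of 5 classes, with differences of 0.0761 to 0.252. The SD of the score over regions was larger, 0.901 for isolated and 0.899 for other regions. The classes were not split by arm, and on 3L and chromosome 4 isolated regions had the lower median score before division into classes. In the narrowest class, of 3 to 123 bp, the medians were 2.27 for 133 isolated and 2.16 for 1255 other regions, and in the widest, of 373 bp and more, they were 3.04 for 56 isolated and 2.89 for 1326 other regions. In replicate 1, with classes of the bases that its peaks covered, the differences were 0.0785 to 0.272 in 5 of 5 classes. In replicate 2 they were 0.0233 to 0.241 in 5 of 5 classes. The division was then turned round, which describes the same joint pattern of width and score. Within 5 classes of score, isolated regions were narrower in 5 of 5 classes in each replicate, with differences of -60.5 to -7.5 bp in replicate 1 and of -56 to -5 bp in replicate 2. Regions with a score above and a width below the median of all regions made up 27.8% of the isolated regions (24.0% to 31.8%) and 17.5% of the other regions (16.6% to 18.5%).

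Median widths of the whole-series regions were smaller the farther away the nearest region was, up to 100 kb, and most of the difference lay below 20 kb. The median was 228 bp for the 2665 regions with a neighbour within 1 kb, 208 bp from 1 to 5 kb, 190 bp from 5 to 10 kb and 187 bp from 10 to 20 kb. Among isolated regions, the 441 whose smaller gap was 20 to 50 kb had a median of 169 bp, and the 72 with 50 to 100 kb had 159 bp. The 16 members with 100 kb or more on both sides had 197 bp, so the decline did not continue in this small class. The bases covered in each replicate did not decline at every step. In replicate 1 the medians were 213 bp under 1 kb, 169.5 bp from 5 to 10 kb, 170 bp from 10 to 20 kb and 151.5 bp from 100 kb upward. In replicate 2 these classes had 172, 139, 143 and 157 bp. Within the members alone, the smaller gap and the width had a Spearman's rho of 0.000508 over 529 regions. Scores went down and up again. Their medians were 2.63 under 1 kb, 2.49 from 1 to 5 kb, 2.56 from 10 to 20 kb, 2.61 from 20 to 50 kb, 2.72 from 50 to 100 kb and 2.55 from 100 kb upward.

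**Figure D3:**
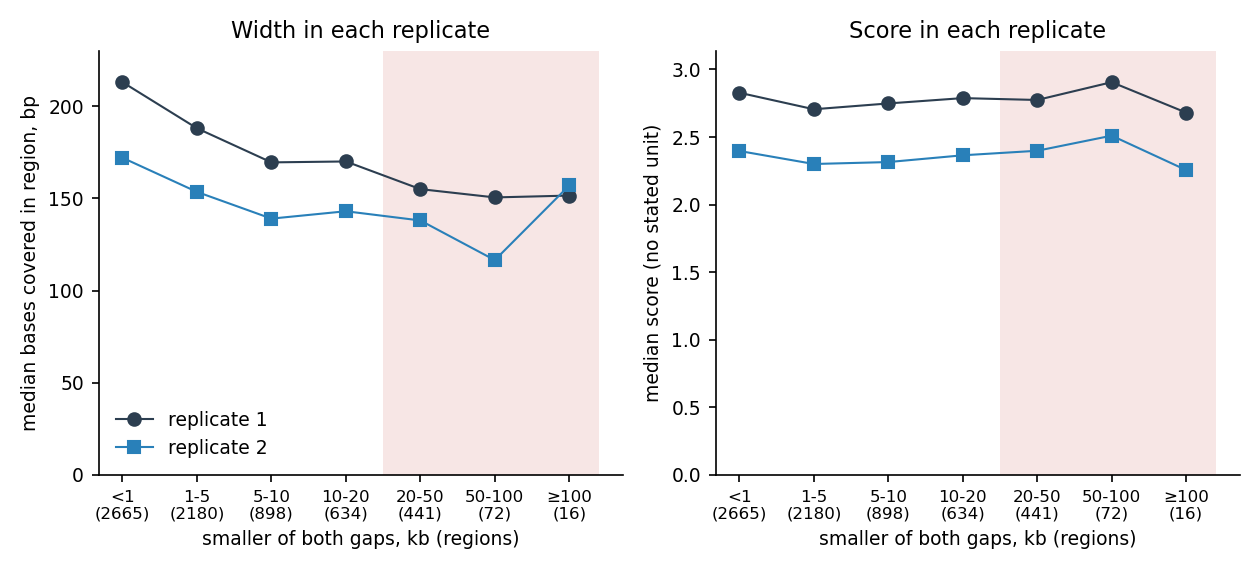
Median bases covered by a replicate's peaks in a region (left) and median score, without a stated unit (right), by the smaller of a region's gaps in kb, for replicate 1 (circles) and replicate 2 (squares), with the number of regions in brackets. The shaded classes are the isolated regions. Covered bases are 213 bp in replicate 1 and 172 bp in replicate 2 under 1 kb, and 155 bp and 138 bp at 20 to 50 kb, while the score medians stay between 2.68 and 2.91 in replicate 1 and between 2.26 and 2.51 in replicate 2.

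Regions with a long gap on one side had widths between those of isolated and enclosed regions. Regions with both gaps of 20 kb or more had a median width of 168 bp, the 2136 regions with a gap of that size on one side had 195.5 bp, and the 4241 regions with none had 221 bp. To set isolated regions against regions that were also single, regions with gaps of at most 1000 bp were chained into groups. Of 606 groups with 20 kb free on both sides, 529 were the isolated regions and 77 held 2 to 4 regions. The isolated regions, with a median of 168 bp, were narrower than the 3721 other single regions, with 200 bp. Regions in the 65 isolated pairs had a median of 198 bp, and those in the 12 larger isolated groups had 250.5 bp. Among groups that were not isolated, regions in pairs had 223 bp and those in larger groups 242 bp. The median score of isolated regions, 2.64, was above that of the other single regions, 2.51, and the order was the same in replicate 1, with 2.78 for isolated and 2.72 for other single regions, and in replicate 2, with 2.41 for isolated and 2.31 for other single regions. This division was chosen after the values were seen.

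The edges of the replicates' peaks lay about as close together in isolated regions as in other regions. Every region of the arms held a peak of each replicate, so agreement on place was given by the list and is not a result. A member consisted of exactly 1 peak of each replicate in 519 of 529 cases, or 98.1% (96.6% to 99.1%), against 96.4% (95.9% to 96.8%) of the other regions. The starts of the replicates' peaks were a median of 18 bp apart in isolated regions and 22 bp in other regions, and the ends were likewise 18 bp apart in isolated and 22 bp in other regions. Such distances are limited by the width of a region, and isolated regions were narrower. The stretch covered in both replicates made up a median of 75.2% of the width in isolated regions and 72.6% in other regions. Replicate 1 covered the whole of 48.8% of the isolated and 45.9% of the other regions. Replicate 2 covered the whole of 14.4% of the isolated and 12.1% of the other regions. The deposited outline was thus more often that of replicate 1 in members and other regions alike.

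The replicates also ranked the members alike. Spearman's rho between the scores in replicate 1 and replicate 2 was 0.868 over 529 isolated regions and 0.881 over 6389 other regions, and the points share a library on each axis. Replicate 1 gave the higher score in 81.7% of isolated regions (78.1% to 84.9%) and in 87.7% of other regions (86.8% to 88.4%). The median difference of replicate 1 minus replicate 2 was 0.366 in isolated and 0.406 in other regions.

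**Figure D4:**
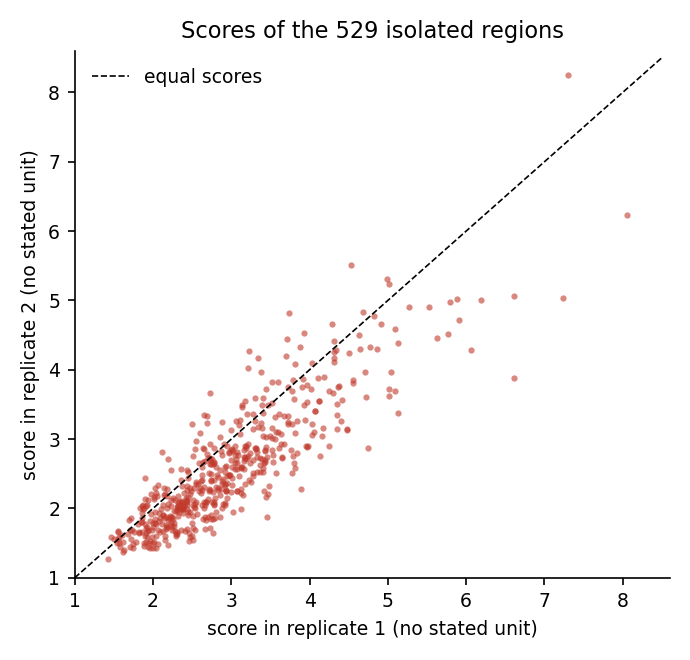
Score of each of the 529 isolated regions in replicate 1 (horizontal) and replicate 2 (vertical), without a stated unit, with a dashed line of equal scores. Of the points, 81.7% lie below the line, and the region with the highest score in replicate 2, 8.25, lies above it.

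Peaks found in one replicate alone are not in the whole-series list and were not used to choose the members. They do come from the same 2 libraries, and the rule picks places with no other listed region within the same 20 kb. Their number nearby is thus not independent of the choice of members. One-replicate peaks were fewer around isolated regions. A peak of replicate 1 alone lay within 20 kb of 232 of 529 isolated regions, or 43.9% (39.6% to 48.2%), against 81.7% (80.8% to 82.7%) of other regions, where the share over all regions of the arms was 78.9%. A peak of replicate 2 alone lay within 20 kb of 91 of 529 isolated regions, or 17.2% (14.1% to 20.7%), against 46.9% (45.7% to 48.2%) of other regions and 44.7% of all regions. The difference was -37.9 percentage points in replicate 1 and -29.7 in replicate 2, with a mean of -33.8 ± 5.78 points (SD, n = 2). Both lists are needed to define each set of one-replicate peaks, and the sets differ in size, with 3373 on the arms in replicate 1 and 1069 in replicate 2. This SD is therefore not a spread between independent measurements of the same quantity. One peak can lie near several regions and is then counted for each, which happens more often where regions are dense. With both replicates counted, 49.3% of isolated regions and 13.4% of other regions had no one-replicate peak within 20 kb. For isolated regions, 261 in number, this means no other peak of any kind within that distance, whereas the other regions may still have had a region of the list nearby.

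Around isolated regions the rate of one-replicate peaks was highest in the first 1 kb, though lower there than around other regions. All distances given here lie within the 20 kb that the rule keeps free of listed regions. The lower rates farther out, and the ratios built on them, are thus not independent of the choice of members. In the first 1 kb on either side, peaks of replicate 1 alone occurred at 0.0558 per kb around isolated regions and 0.107 per kb around other regions, and the rate along the arms as a whole was 0.0281 per kb. At 10 to 20 kb the rate was 0.0144 per kb around isolated and 0.0446 per kb around other regions. The rate in the first 1 kb was thus 3.88 times that at 10 to 20 kb around isolated regions and 2.40 times around other regions. Replicate 2 had the same shape. Its rate near isolated regions was 0.0236 per kb in the first 1 kb and 0.00321 per kb at 10 to 20 kb. This ratio of 7.35 rests on 25 and 34 peaks. Around other regions its rate in the first 1 kb was 0.038 per kb and the ratio was 2.76. In both replicates the rate around isolated regions was above the arm-wide rate within 1 kb, by 1.98 times in replicate 1 and 2.65 times in replicate 2. From 2 kb outward it was below that rate, at 0.511 times in replicate 1 and 0.360 times in replicate 2 in the farthest class.

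**Figure D5:**
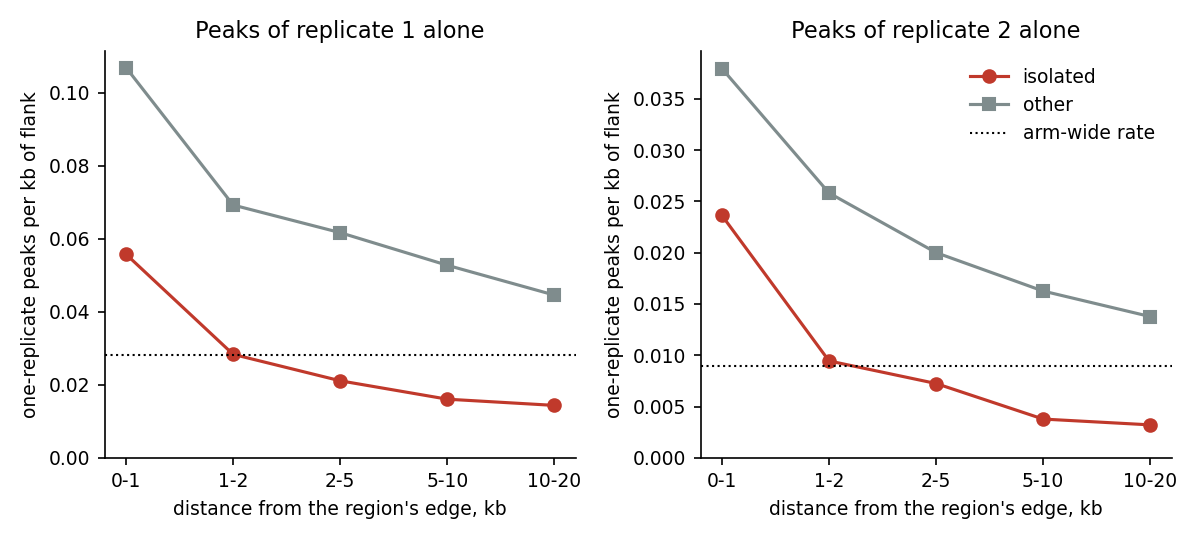
Peaks of replicate 1 alone (left) and of replicate 2 alone (right) per kb of flank, by distance from the edge of isolated regions (red circles) and other regions (grey squares) in kb, with the arm-wide rate as a dotted line. Around isolated regions the rate exceeds the arm-wide rate within 1 kb and lies below it from 2 kb outward.

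The peaks of one replicate near members were short and did not score as high as the members' own. Those of replicate 1 within 20 kb of a member, 376 in all, had a median width of 56.5 bp and a median score of 2.26, against 60 bp and 2.17 for its 2997 such peaks elsewhere. The replicate 1 peaks inside members had 155 bp and 2.78. For replicate 2, the 109 peaks near members had 37 bp and 2.25, against 37 bp and 2.08 for the 960 elsewhere, and its peaks inside members had 135 bp and 2.41. Single peaks of this kind could score far above the whole-series score of the member beside them, which draws on both replicates. In replicate 1 the highest lay on 2R from 12936592 to 12936650 with a score of 13.6. It was 13501 bp from a member with a whole-series score of 2.02. Next came a 4 bp peak of 2L (5520256 to 5520259) that scored 11.2 and a 9 bp peak of 3L (7794801 to 7794809) that scored 8.87. In replicate 2 the highest scored 6.62 on 2L (6107740 to 6107809), 6.17 on X (2342198 to 2342306) and 5.37 on 3R (14619277 to 14619295), the last of them 1468 bp from a member.

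Members alone in this stricter sense had widths close to those of the rest and slightly lower median scores. The 261 members without any one-replicate peak within 20 kb had a median width of 167 bp and a median score of 2.62, and the 268 with such a peak had 170.5 bp and 2.67. In replicate 1 the peaks covered 153 bp in members without and 156 bp in members with a one-replicate peak, and in replicate 2 they covered 136 bp in members without and 135 bp in members with one. The median scores were 2.75 without and 2.85 with one in replicate 1, and 2.41 without and 2.43 with one in replicate 2.

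Applied to the list of one replicate alone, the same rule gave 461 isolated peaks in replicate 1 and 506 in replicate 2. Of the 529 members, 296 (56.0%) held an isolated peak of replicate 1, 433 (81.9%) held one of replicate 2, and 256 (48.4%) held one of each. Of the isolated peaks of replicate 1, 64.2% lay in members and 35.6% were peaks without a partner in replicate 2. Of those of replicate 2, 85.6% lay in members and 13.8% had no partner. Isolated peaks were narrower than the others in each list, with medians of 113 bp for isolated and 136 bp for other peaks of replicate 1, and of 119.5 bp for isolated and 134 bp for other peaks of replicate 2. The median scores were 2.64 for isolated and 2.58 for other peaks of replicate 1, and 2.38 for isolated and 2.32 for other peaks of replicate 2.

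On chromosome 4 the isolated regions had lower median scores than the other regions. The 12 members ranged in width from 47 to 964 bp and in whole-series score from 1.94 to 4.31, with a median of 2.72, against 3.32 for the 23 other regions of the chromosome. In replicate 1 the median scores were 3.12 for isolated and 3.45 for other regions, and in replicate 2 they were 2.34 for isolated and 2.78 for other regions. A peak of one replicate alone lay within 20 kb of 10 of these 12 members, or 83.3% (51.6% to 97.9%), against 21 of the 23 other regions of the chromosome, or 91.3% (72.0% to 98.9%), and 83.8% of all regions.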

How the data were processed

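The data were peak lists from 2 MCM immunoprecipitations, 1 list per replicate and 1 for the whole series. Per the file headers and source column, calls were made with PeakSeq on release 5.1 of the FlyBase genome. The aligner and caller settings were not given in the sources used here, nor was any use of the input. The score of each peak is as the authors deposited it, with no stated unit. Whole-series regions hold peaks of both replicates, so their values are not independent of the replicate lists. Positions are counted from 1, as deposited.

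Widths (end minus start plus 1), gaps and overlaps (at least 1 bp) were computed with Python 3.11.15, numpy 2.4.6 and pandas 2.3.3. A replicate's score for a region is the mean score of its peaks there. Each arm was taken from its first to its last peak. A one-replicate peak overlapped no peak of the other replicate. Intervals are exact Clopper-Pearson at 95% (scipy 1.17.1). The gap rule and the neighbour counts were tested on simulated lists, where all 370 planted isolated regions were found.

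The members, alternatives and named regions (extremes of gap, width and score, the members at the threshold, and the top one-replicate peaks nearby) were chosen with earlier results of these data known. The gene table used here is of release 6, so no genes or sequences are given. Alternatives changed the gap, the neighbours, the score threshold, the overlap and the replicate.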

Additional observations from a re-analysis of the deposited data

Results flagged for a closer look

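The rule left out U and the Het scaffolds, which held 111 regions of the whole-series list. They were noted because MCM signal appears there outside the comparisons above. Of these, 46 had gaps of 20 kb or more on both sides, 28 of them on U, and their medians were 202 bp for width and 2.28 for score. U collects sequence not placed on a chromosome, so its gaps need not be real distances.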

How the results depend on the processing

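Isolated regions stayed narrower under all 14 alternatives, with differences of -61.5 to -14.5 bp in median width. The largest difference, -61.5 bp, came from merging regions within 1000 bp, where a width also counts the stretches between the merged regions. The lists of one replicate gave -23 and -14.5 bp. The number of isolated regions was 1163 with a gap of 10000 bp, 261 with 30000 bp and 262 when any peak of either replicate counted as a neighbour (261 of them among the 529), and with one replicate left out it was 461 to 506. The score difference, 0.0875 in the whole-series list, was 0.0474 with a gap of 10000 bp, 0.0458 where each replicate had to cover 50% of the region, and 0.132 against other regions with no region within 1000 bp, an alternative chosen after seeing the data. It turned to -0.0501 among the 50% of regions with the higher score, and the cause was not tested. With one replicate left out it was 0.0649 to 0.0671. The difference in regions with a one-replicate peak nearby, -35.9 percentage points, was -23.1 with a gap of 10000 bp, -20.8 among higher-scoring regions and -29.2 within 5000 bp. It was -87.1 when any peak counted as a neighbour, since members then have none by construction. It has no value with one replicate left out. The difference between the shares of isolated and other regions at the centromere ends, 3.02 points, depends on the spacing that the rule uses. It was 0.703 with a block of 1 Mb and 4.82 to 6.13 with one replicate left out. The immunoprecipitations were not paired with samples of another group, since the only other group, the input, was not analysed here. Isolated and other regions were compared within each replicate. Depth is unknown, and its part in the widths was not tested.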
